A study of Mus musculus with 2 samples.

Results

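The 3 RUNX genes of the mouse, Runx1, Runx2 and Runx3, and Cbfb, the gene of their shared partner, are described here in RAW 264.7 cells. These 4 genes were taken by name, and their family was selected on its log2 ratios between the samples described here, from an array with 41171 non-control probes for 28783 gene names, of which 16023 had a measured probe. They had 10 probes, of which 6 were measured on both arrays, 1 was well above background with RCCS RNA alone, and 3 with neither RNA. RAW 264.7 is a mouse macrophage-like line, of tumour origin, that can form osteoclast-like cells under the cytokine RANKL. The 2 samples were the control, kept at ground level, and the cells labelled RCCS, from a rotary cell culture system that models microgravity, loaded for 24 h. The protocol gives RANKL at 80 ng/ml over 24 h, and its text, which is the same for both samples, leaves unclear whether the control cells received it as well. The study asked how modelled microgravity alters gene expression on the way to osteoclasts. Each condition had 1 array, so no test between conditions was possible, no difference has a replicate check, and the values are a description of 2 arrays. The choice used this same contrast, so the differences are given without a test. In RNA from whole cultures, fewer cells of a type and less RNA per cell cannot be told apart.

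RUNX proteins are transcription factors that bind DNA through a conserved domain, the Runt domain, and recognise short sites of the form TGTGGT. CBF beta, the product of Cbfb, does not bind DNA by itself and joins RUNX proteins as a partner that strengthens their binding and protects them from degradation. RUNX1 is needed for blood stem cells to form and acts in myeloid cells beside factors such as PU.1, RUNX2 is the main transcription factor of bone-forming osteoblasts, and RUNX3 is best known for its part in T cell and dendritic cell development. The RUNX genes are transcribed from a distal and a proximal promoter, and RUNX proteins are known to bind sites in the distal ones.

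The promoters of the 4 genes are shown first because the RUNX site stands in some of them. RefSeq promoters of build GRCm38.p6, each from 250 bases before to 50 bases after an annotated start, were available for the 4 genes, 6 in all, with 2 each for Runx1 and Runx3 and 1 each for Runx2 and Cbfb. That 1 window was listed for Runx2 does not mean that the gene has 1 promoter. The site TGTGGT was searched on both strands, where it reads ACCACA on the other one. In the sequences below, written 5′ to 3′ on the gene's own strand, capitals mark this site.
Runx2, whole window at chr17:44814578-44814877, minus strand: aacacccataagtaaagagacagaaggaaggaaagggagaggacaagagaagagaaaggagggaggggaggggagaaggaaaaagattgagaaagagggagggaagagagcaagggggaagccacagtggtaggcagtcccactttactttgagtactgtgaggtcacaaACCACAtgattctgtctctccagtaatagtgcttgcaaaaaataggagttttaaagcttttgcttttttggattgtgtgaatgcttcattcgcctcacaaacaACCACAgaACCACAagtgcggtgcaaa
Runx1, part of the distal window at chr16:92826025-92826078, minus strand: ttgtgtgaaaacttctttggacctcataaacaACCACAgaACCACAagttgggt
Runx3, part of the distal window at chr4:135120479-135120546, plus strand: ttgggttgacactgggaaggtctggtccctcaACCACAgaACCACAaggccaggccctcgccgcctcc

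The Runx1 and Runx3 distal windows held 2 sites each and the Runx2 window held 3. In each of the 3 genes, 2 sites stood side by side in the same 18 letters, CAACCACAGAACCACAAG, the longest run that the 3 windows share. Counting the first transcribed base as 1, this run began at base 27 of Runx1 and at base 22 of Runx2, and at position -136, ahead of the start, in Runx3. The third Runx2 site began at position -80. The proximal windows of Runx1 and Runx3 and the Cbfb window held 0 sites. Of the 32851 promoter windows of this length in the table, 5506 (16.8%) held at least 1 site and 595 (1.81%) at least 2. The 18 letters, which were searched for after the sequences had been read, stood in 4 windows (0.0122%). These were the 3 windows of the Runx genes and that of Gm16225, a long non-coding RNA gene on the opposite strand whose window overlaps the Runx3 one. A match describes these letters and says nothing of binding in these cells.

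**Figure D1:**
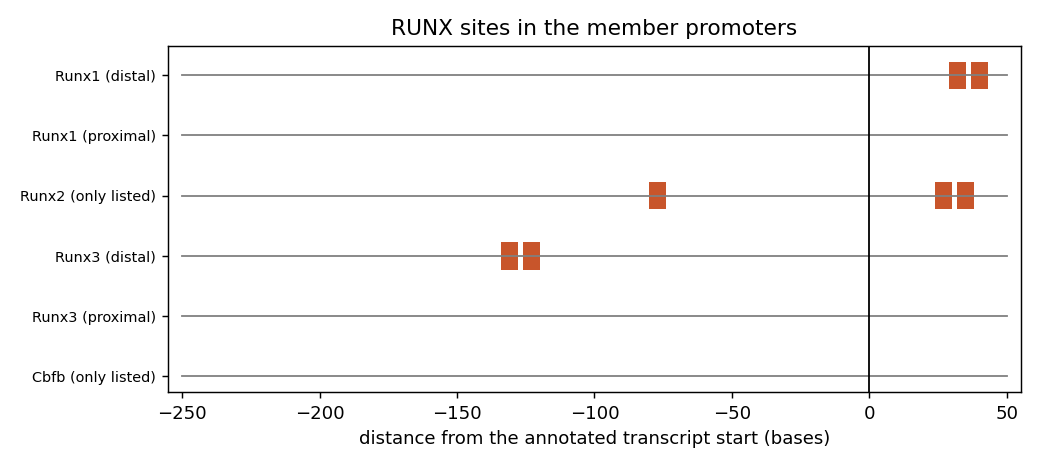
Position of each TGTGGT site, read on either strand, in the 6 promoter windows, with the distance from the annotated transcript start in bases on the x axis and 1 line per window. Filled blocks are sites; the distal windows of Runx1 and Runx3 hold 2, the Runx2 window holds 3, and the other 3 windows hold 0.

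On the arrays, Runx2 was higher on the RCCS array. Runx1 was higher by 1 of its 2 probes and Cbfb lower by 1 of its 2, both by less than 2-fold. Runx3, at -0.37, lay about as far below 0 as the mean of the Runx1 probes, 0.37, lay above it. Signals are the processed spot intensities of the scanner software, and the log2 ratio is RCCS minus control after each array was divided by its own 75th percentile (849 for the control, 966 for RCCS). A probe counted as measured where at least 50% of its spots were well above background on both arrays. At least 2-fold was taken as a call. Of 22849 measured probes, 4.15% passed it upward on the RCCS array and 4.11% downward, and of the measured genes 3.88% and 3.76%. Of the 6 measured probes of the 4 genes, 1 passed this fold, a Runx2 probe. The errors given with a log2 ratio are those the scanner software assigned to the spots, so the 95% intervals cover spot error and nothing of cultures, RNA or labelling.

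**Figure D2:**
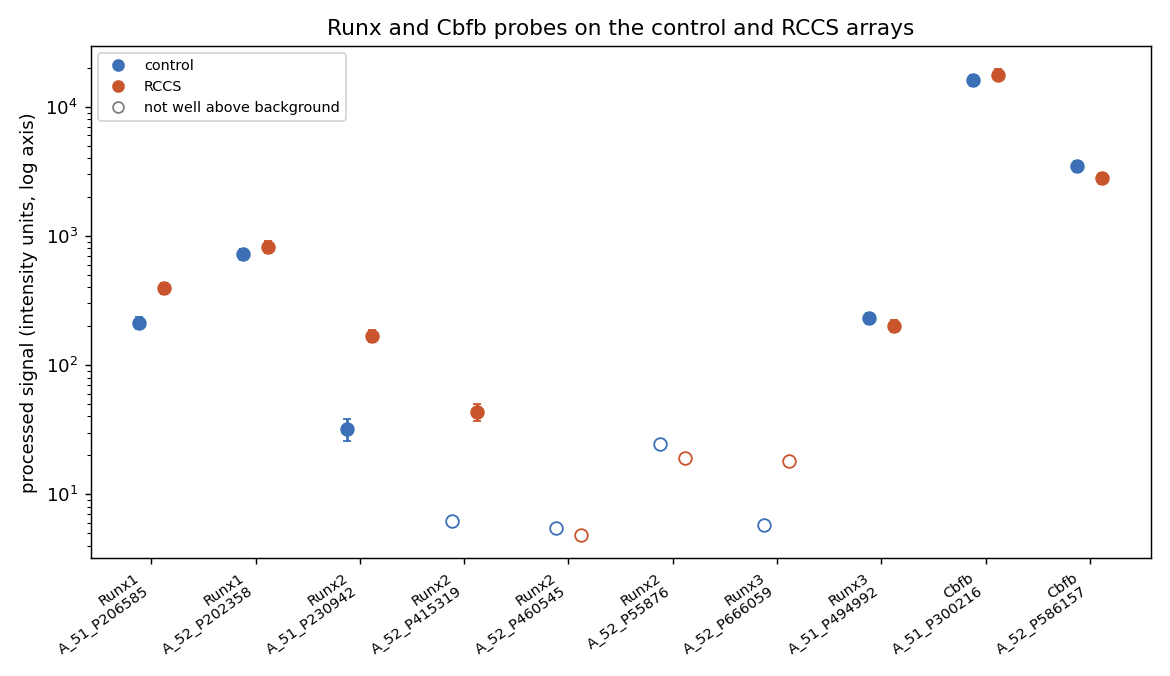
Processed signal (intensity units, log axis) of the 10 probes of Runx1, Runx2, Runx3 and Cbfb on the control array (blue) and the RCCS array (orange), with probes of a gene side by side. Filled points were well above background and carry the spot error of the scanner software as bars, which are smaller than the points for bright probes; open points were not and carry none. The Runx2 probe A_51_P230942 goes from 31.9 to 168, while levels of different probes cannot be set against each other.

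Runx2 encodes the transcription factor without which osteoblasts do not form. It had 4 probes on the array, and 1 of them, A_51_P230942, was printed 10 times. On the control array these 10 spots had signals of 20.6 at the lowest, 32.3 at the median and 39.7 at the highest, and 9 of them were well above background. In RCCS the signals were 161 at the lowest, 166 at the median and 187 at the highest, and 10 of 10 were well above background. The spots of the arrays did not overlap. After scaling, the lowest spot on the RCCS array stood 3.56-fold above the highest on the control array. The spots share 1 RNA sample per array and are not replicates of a condition.

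The mean signal of this probe was 31.9 ± 5.44 (SD over 10 spots) in the control and 168 ± 7.91 in RCCS. The log2 ratio was 2.21, a 4.64-fold higher level on the RCCS array, with a 95% interval of 1.59 to 2.83 from the spot error. That error is the average of the single-spot errors and was not reduced for the 10 spots. Spot by spot the log2 ratio ran from 1.94 to 2.83, with an SD of 0.26. Among 48 measured probes printed 10 times whose dimmer array was under a signal of 100, the median of this SD was 0.31. Of all measured probes, 0.508% had a log2 ratio as high, and of all measured genes 86 (0.537%). This call rests on a control signal close to the limit of the assay, since the dimmest probe called well above background on that array had 24.2. With normexp background correction, which adds an offset of 50 before logs are taken, the log2 ratio was 1.10, still above 2-fold. In the ratio table the authors deposited, Runx2 stood at 0.04 for the control and at 0.17 for RCCS by this probe.

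**Figure D3:**
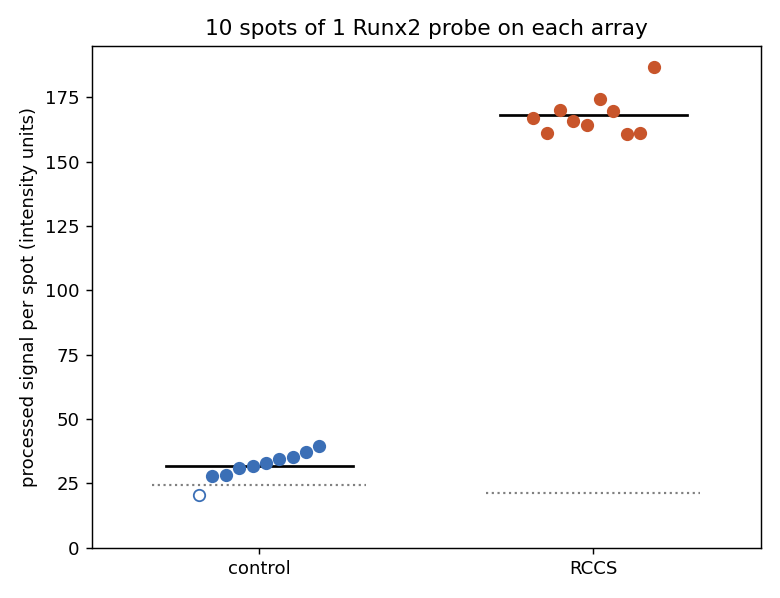
Processed signal (intensity units) of the 10 spots of the Runx2 probe A_51_P230942 on each array; black lines are the means, 31.9 and 168, dotted lines the dimmest probe called well above background on that array, and the open point is the spot that was not well above background. Every RCCS spot lies above every control spot.

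The other 3 Runx2 probes were near background. In the coordinates of the array's design, of a genome build that those sources do not name, probe A_52_P415319 lies 138 bases upstream of the repeated probe along the transcript. Its spot on the control array was no brighter than its surroundings, with a mean of 74.5 in the raw pixels against a background of 77.0, and its processed signal of 6.21 is a substitute value set by the software. On the RCCS array it passed the background call at 43.5, with a mean of 116 in the raw pixels against a background of 76.4. The control side thus gives a limit alone. The scaled RCCS signal of this probe was 1.58-fold that of the dimmest probe called on the control array. This nominal limit leaves out the spot error. Some uncalled control spots were also brighter than that dimmest probe, as A_52_P55876 was at 24.5 against 24.2.

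Probes A_52_P460545 and A_52_P55876, placed 3911 and 209684 bases upstream of the repeated probe in the design's coordinates, were well above background on neither array. Their processed signals were 5.47 and 24.5 in the control and 4.82 and 19.2 in RCCS, and no fold is given for them. Both Runx2 probes closest to the 3′ end of the transcript thus passed the background call in RCCS, and those further upstream did not. Of the latter, A_52_P460545 still lies far closer to the 3′ end than A_52_P55876. Which Runx2 transcripts were present cannot be read from these probes, and the part of probe performance in this split was not tested.

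Runx1, the RUNX gene of blood stem cells and myeloid cells, had 2 probes, and both were measured. Probe A_51_P206585, which lies nearer the 3′ end, had a signal of 212 in the control and 396 in RCCS. Its log2 ratio was 0.72 (1.64-fold higher), with a 95% interval of 0.31 to 1.13, and 7.48% of measured probes were as high. Probe A_52_P202358 is assigned to another Runx1 mRNA, and its ends lie 30453 bases apart in the design's coordinates, so this probe of 60 bases crosses at least 1 intron. Its signal was 718 in the control and 826 in RCCS, with a log2 ratio of 0.02 and a 95% interval of -0.38 to 0.42.

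The Runx1 probes thus disagreed, by 0.70 on the log2 scale. A difference as wide or wider was found in 877 of the 5091 genes that had several measured probes (17.2%), where the median was 0.30. Neither Runx1 probe was 2-fold higher. The mean of the pair was a log2 ratio of 0.37, or 0.50 relative to the median of all measured genes, which was itself at -0.13. Under scaling on the spike-in probes, the first probe came to 1.03, and under the other alternatives it stayed between 0.58 and 0.86.

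Runx3, known for its role in T cells and dendritic cells, had 2 probes. Probe A_51_P494992 had a signal of 230 in the control and 202 in RCCS. Its log2 ratio was -0.37 (1.30-fold lower), with a 95% interval of -0.79 to 0.04, so that the spot error alone reaches 0. Relative to the median of all measured genes, the log2 ratio of Runx3 was -0.24. Of the measured probes, 29.5% were as low. The second probe, A_52_P666059, placed 646 bases further toward the 3′ end, was well above background on neither array, at 5.82 (a substitute value) and 18.1. Taking this probe in by dropping the filter on dim probes turned the mean of Runx3 to 0.54, a value set by a probe that did not rise above background. By the measured probe, the log2 ratio of Runx3 was below 0 in 11 of 11 alternatives, from -0.41 to -0.07. Not all of these can move a single probe, since changing the filter on dim probes leaves its value as it was.

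Cbfb, whose product stabilises RUNX proteins on DNA, had 2 measured probes. Probe A_51_P300216 had a signal of 16082 in the control and 17755 in RCCS, a log2 ratio of -0.04 with a 95% interval of -0.44 to 0.36. This value turned above 0 in 6 of 11 alternatives, so its sign depends on the processing. Relative to the median of all measured genes it was 0.09, and 0.08 to 0.30 in the alternatives. Probe A_52_P586157, 1786 bases upstream of it, had 3481 and 2814, a log2 ratio of -0.49 with a 95% interval of -0.89 to -0.09. It was below 0 in 11 of 11 alternatives, from -0.49 to -0.18. Again, some of these cannot move a single probe. The probes of Cbfb lay 0.45 apart, and 34.0% of the genes with several measured probes were as far apart or further. Their mean was -0.27, or -0.14 relative to the median of all measured genes, and it came to 0.04 under scaling on the spike-in probes.

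In the order of log2 ratios, Runx2 stood first at 2.21, followed by Runx1 at 0.37, Cbfb at -0.27 and Runx3 at -0.37. The order describes these arrays, and no pair of neighbours in it was tested. The probes of Runx1 lay 0.70 apart and those of Cbfb 0.45 apart, and the first of these distances is wider than that between the means of the 2 genes. The intron-crossing probe of Runx1 and the brighter probe of Cbfb stood next to each other, at 0.02 and -0.04.

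**Figure D4:**
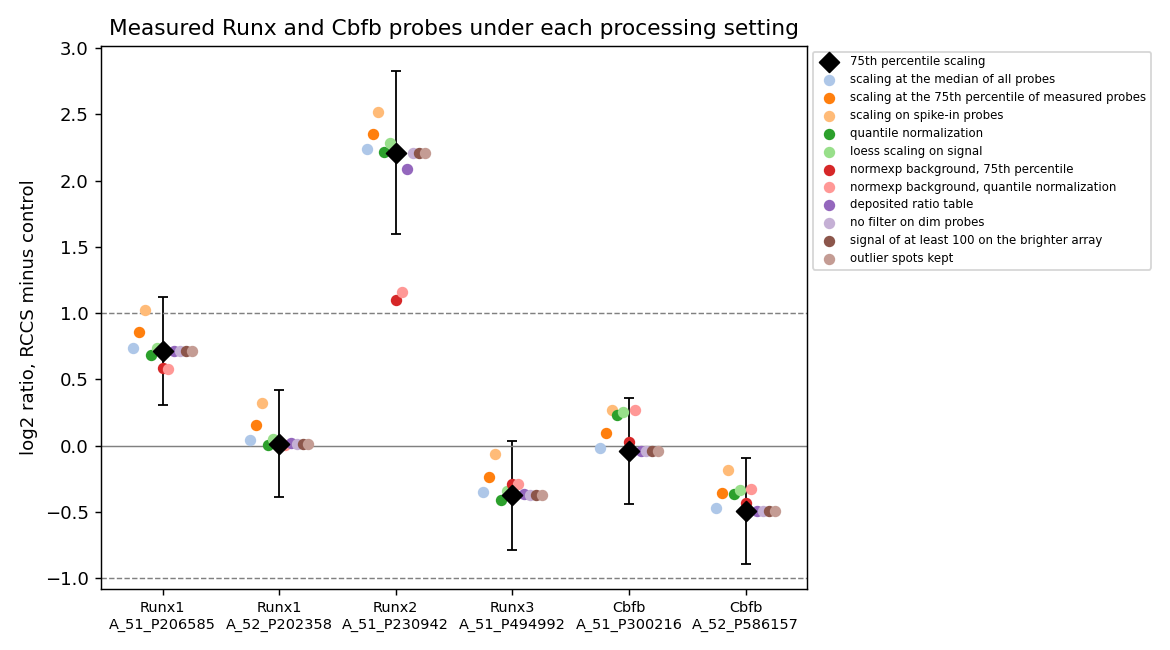
Log2 ratio, RCCS minus control, of the 6 measured probes of Runx1, Runx2, Runx3 and Cbfb under 75th percentile scaling (black diamonds, with the 95% interval from the spot error) and under 11 alternative settings (coloured points). Settings that change the choice of probes alone leave a probe's value as it was. Dashed lines mark 2-fold; the Runx2 probe lies above the upper one in each setting, from 1.10 to 2.52, and 1 Runx1 probe reaches 1.03 with spike-in scaling.

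The arrays held 57.5% and 60.6% of probes well above background on the control and RCCS side. Spike-in probes, 7 of 10 of which were measured, had a median log2 ratio of -0.31. Scaled on them, 82.1% of the calls over all genes were higher on the RCCS array in place of 50.8%; the share was 66.7% with the 75th percentile of measured probes, 63.5% with loess scaling and 62.6% with normexp and quantile normalization. These settings moved the median of all genes by 0.31, 0.14, 0.13 and 0.10, and Runx2 relative to that median lay between 1.19 and 2.34 in the alternatives run.

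The cells carried the markers of macrophages on both arrays. Of 15 macrophage markers, 13 were measured, and Mrc1 and Mertk were well above background on neither array. Their summed scaled signal was 1925 in the control and 1982 in RCCS. This sum leans on the lysozyme genes, the brightest of the list before scaling. Lyz2 had 486442 in the control and 547485 in RCCS by its brighter probe, and Lyz1 433733 and 471540. Itgam, the alpha chain of the CR3 integrin, was 4.00-fold higher and was the 1 marker past 2-fold in that direction. That is 7.69% of the measured markers, beside 3.88% of all measured genes. Spi1 was at -0.72, Aif1 at -0.54 and Ptprc, the CD45 gene, at 0.39. The median was 0.08, and 0 markers were at least 2-fold lower.

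Osteoblast and cartilage genes, among them known RUNX2 targets, were mostly near background on both arrays. Of 20 such genes, 18 were on the array and 5 were measured, with a median log2 ratio of -0.55. Spp1, the gene of osteopontin, which macrophages and osteoclasts also make, was at 1.07 (2.10-fold higher, from 113052 to 270184). Sox9, the main transcription factor of cartilage, was at -0.93 with signals of 60.5 and 36.1, and Col1a2, a chain of type I collagen, was at -0.55.

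A further 4 of the 18 genes on the array passed the background call in RCCS and not in the control, and 1, Phex, in the control alone. Phex had a signal of 30.7 in the control and a nominal limit of 1.65-fold lower in RCCS. Over all 28783 gene names, 5.17% passed it on the RCCS array alone and 2.24% on the control array alone. Calls on the RCCS array alone were thus the more frequent across the array as well. The 4 of 18 in this list are a larger share than 5.17%, and the difference was not tested. Mmp13, a collagenase, reached 67.0 on the RCCS array, with a nominal limit of 2.44-fold higher. Bglap, which encodes osteocalcin, reached 37.8 (limit 1.37-fold) and Sp7, the osteoblast factor osterix, 39.1 (limit 1.31-fold). Col1a1, of type I collagen, reached 34.3 (limit 1.25-fold). Bglap, Sp7 and Col1a1 were all close to the dimmest probe called on the RCCS array, at 21.2. Ibsp, Alpl, Tnfrsf11b, Tnfsf11, Dlx5, Col10a1, Dmp1 and Msx2 were well above background on neither array. Leaving out Spp1, the summed scaled signal of the list was 1.44 in the control and 1.26 in RCCS. The part of other cell types in the Runx2 value was not tested.

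Genes with RUNX sites known from blood cells went both ways. Of 17 such genes on the array, 10 were measured. Of these 10, 2 passed 2-fold upward and 0 downward, beside 3.88% and 3.76% of all measured genes. The median was 0.13 against -0.13 over all measured genes. Itgal, the alpha chain of the LFA-1 integrin, was at 2.05 (4.13-fold higher) by probes at 1.36 and 2.73. Cd36, a scavenger receptor, was at 1.19 (from 19365 to 53894 by its brighter probe). Itga4, another integrin alpha chain, was at -0.83, with 5 probes between -1.05 and -0.70. Csf1r, the receptor of the macrophage growth factor M-CSF and a known RUNX1 target, was at 0.05, and its 3 probes spread from -0.40 to 0.33. Csf2, Il3, Elane, Ccr7, Ifng, Gzmb and Tnfrsf11b were well above background on neither array.

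Transcription factors that act beside RUNX1 in myeloid cells had 16 of 19 members measured, with a median of -0.11. Of these, 1 passed 2-fold downward (6.25%, beside 3.76% of all measured genes) and 0 upward. Erg passed the background call in the control alone, at 39.9, with a nominal limit of 2.14-fold lower in RCCS. Gata2 passed it in RCCS alone, at 30.7, with a nominal limit of 1.12-fold higher. Gfi1b, a repressor known from red cell and platelet precursors, was at -2.82 (7.08-fold lower, from 798 to 128), and it stayed at least 2-fold lower in 12 of 12 alternatives. Ets2 was at 0.95, Fli1 at 0.94 and Cebpb at 0.74. Spi1, which encodes PU.1, a factor that works with RUNX1 at myeloid promoters, went from a signal of 23233 to 16063, a log2 ratio of -0.72.

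Corepressors and coactivators of RUNX proteins lay close to the median of all genes, at -0.03 over 19 measured of 24. Hdac4, a deacetylase known to bind and inhibit RUNX2 in mouse cartilage, was at 1.05 (from 93.5 to 221) and came under 2-fold in 2 of 12 alternatives. It was the 1 member at least 2-fold higher (5.26% of those measured, beside 3.88% of all measured genes). Suv39h1, a histone methyltransferase, was at -0.93, Hdac1 at -0.62 and Smarca4, a chromatin remodelling subunit, at -0.51. None of the measured members was at least 2-fold lower. Kat6a passed the background call in the control alone (42.7, against 17.0 in RCCS), with a nominal limit of 2.29-fold lower in RCCS. The Groucho family genes Tle1, Tle2, Tle3, Tle4 and Tle5 lay between -0.20 and 0.22.

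Kinases, ubiquitin ligases and other modifiers of RUNX proteins had the lowest median of the 3 lists of RUNX partners and modifiers, -0.48 over 22 measured genes, 0.35 below the median of all genes. At least 2-fold lower were 4 of them (18.2%, beside 3.76% of all measured genes), and 0 were at least 2-fold higher. Cdk6, a cell cycle kinase also known to bind RUNX1, was at -1.44, Skp2, a ubiquitin ligase subunit, at -1.29, Cdc20, an activator of the anaphase-promoting complex, at -1.18, and Prmt1, which methylates RUNX1, at -1.04. Cdk6, Skp2, Cdc20 and Prmt1 came under 2-fold in 1, 1, 4 and 6 of 12 alternatives. Cdk6, Skp2 and Cdc20 are also genes of the dividing cell.

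**Figure D5:**
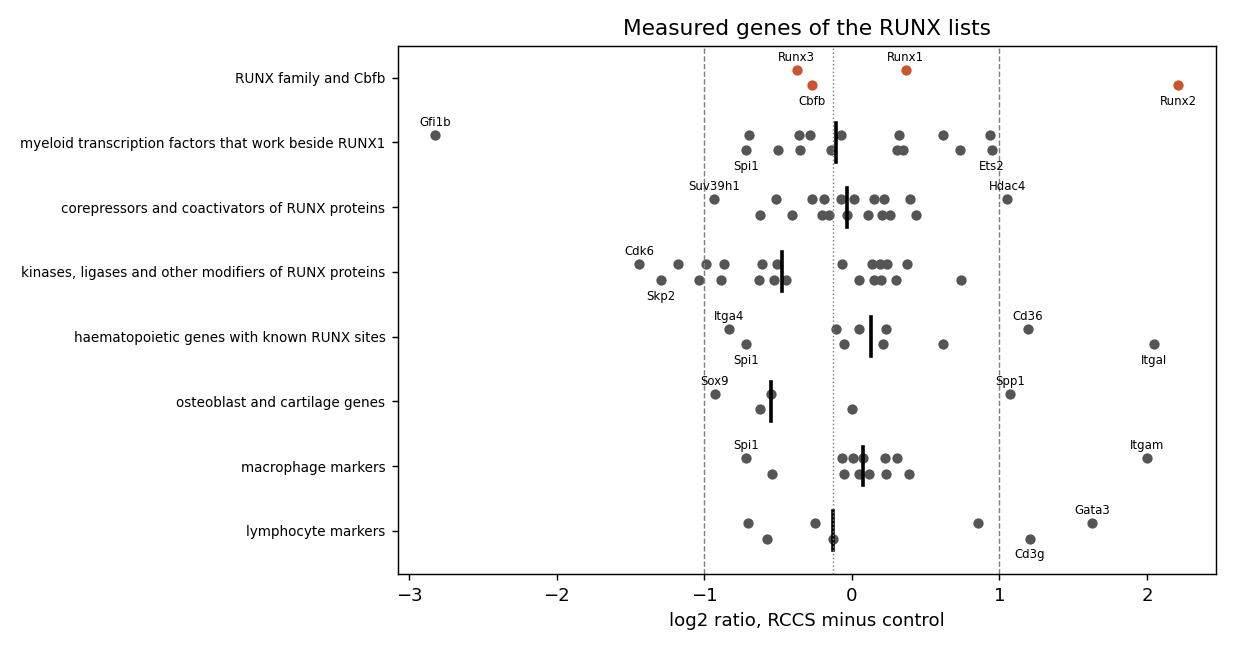
Log2 ratio, RCCS minus control, on the x axis for the 4 RUNX and CBF beta genes (orange) and for the measured genes of 7 lists (grey), 1 row per list, with vertical bars at each list's median. Dashed lines mark 2-fold and the dotted line the median of all measured genes, -0.13; Runx2, at 2.21, lies furthest to the right and Gfi1b, at -2.82, furthest to the left of the genes shown.

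Lymphocyte markers were also looked at, since RUNX3 and RUNX1 are abundant in lymphocytes. Of 14, 7 were measured, and 2 of these (28.6%, beside 3.88% of all measured genes) were at least 2-fold higher. Gata3 was at 1.63 (from 70.4 to 248) and came under 2-fold in 0 of 12 alternatives. Cd3g was at 1.21 (from 30.2 to 79.2) and came under 2-fold in 2 of 11. Cd79a was at 0.86, also dim, and Cd3e at -0.70. Cd3d, Cd8a, Cd79b, Ms4a1, Rag1 and Rag2 were well above background on neither array. Ncr1 passed the background call in RCCS alone, at 31.3, with no nominal limit above 1-fold. The summed scaled signal of the list was 3.32 in the control and 3.34 in RCCS, most of it from Cd8b1 (1.84 and 1.98) and Lck (0.82 and 0.55). Without these 2 genes, named after their values were seen, the sum was 0.67 in the control and 0.81 in RCCS. The part of these cells in the Runx values was not tested.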

How the data were processed

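Each sample was hybridised in 1 colour to 1 Agilent whole mouse genome array. The deposited spot files hold intensities on a linear scale that Agilent Feature Extraction 9.5.3.1 made, per the file headers, with background subtracted, trends over the array removed and no scaling between arrays; the same software is named in the submitters' processing notes. The files' flags for background, saturation and outliers were used as deposited. A second table the authors deposited holds a ratio per probe, which equals that signal over 849 for the control and over 964 for RCCS, with a lowest value of 0.01 and a median of 0.06 in both columns; its processing and direction are not stated.

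Spots of a probe were averaged, leaving out spots with an outlier flag on either array; 0 spots were saturated. The log2 ratio was taken after scaling at the 75th percentile of 41171 probes, and a gene took the mean of its measured probes. A probe well above background on 1 array has a nominal limit. This is its scaled signal over whichever is higher on the dim array, its own signal or that of the dimmest called probe. Spot error is not included, so the true fold can be smaller. Accessions of 22950 probes were named through the RefSeq table of GRCm38.p6 and 18221 kept the file's name. The calculation was tested on simulated data. Python 3.11.15, R 4.3.3 and limma 3.58.1 were used. Precision is limited by the number of arrays, and depth does not apply. From each list the 4 genes with the largest absolute log2 ratio are named, and Csf1r, Spi1 and Spp1 in any case, except for 1 gene that is not reported here; other list genes were named after their values were seen. The 4 genes and the 7 lists, some of which share genes, were chosen with earlier results of these data known.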

Additional observations from a re-analysis of the deposited data

How the results depend on the processing

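No paired analysis was possible because each condition had 1 array, and for the same reason no replicate could be left out. Not every alternative can move a value. For a gene with 1 probe, as Gfi1b or Gata3, neither changing the filter on dim probes nor taking the brightest probe does. The deposited ratios are the same signal over nearly the same divisors, and keeping outlier spots barely changed the values of the 4 genes. Over 12 alternatives Runx2 was higher on the RCCS array throughout, at 0.98 to 2.52; it came to 1.10 and 1.16 with normexp background correction (75th percentile and quantile scaling) and to 0.98 without a filter on dim probes, where probes below background enter the mean. Runx1 ranged from 0.016 to 0.68, at 0.68 with spike-in scaling and 0.016 by the brightest probe. Runx3 was at 0.54 without the filter, and Cbfb at 0.041 with spike-in scaling. The other values of the 4 genes moved by less than the 95% half-width of the spot error. Genes at least 2-fold higher, 622, became 1201 with spike-in scaling, 364 with normexp and the 75th percentile, 1607 without the filter, 1560 at 1.5-fold and 205 at 3-fold. Genes at least 2-fold lower, 603, became 261, 346, 1804, 2378 and 154 in the same order, and 248 with normexp and quantile normalization. The control signal of Runx2, 31.9, lies near the dimmest called probe, 24.2, and with 1 array per condition the spread between cultures is unknown.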

Other observations

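Among measured genes with a RefSeq promoter window, those with at least 1 TGTGGT site on either strand numbered 1556, of which 81 (5.21%) passed 2-fold upward on the RCCS array and 63 (4.05%) downward. Of the 8438 genes with 0 sites, 316 (3.74%) were higher and 298 (3.53%) lower. The medians were -0.12 and -0.14. The difference between these shares was not tested, and the base composition of the windows was not matched. Among the promoters of genes with RUNX sites known from blood cells, 4 of 13 windows held the site, those of Itga4, Zbtb7b, Il3 and Gzmb, and among osteoblast and cartilage genes 4 of 14, those of Bglap, Dmp1, Spp1 and Mmp13. Lymphocyte markers had the highest share of the 7 lists, 4 of 12 windows (33.3%), of which 3 held at least 2 sites. The site stood in 4 of 23 windows of modifiers of RUNX proteins, 3 of 25 of corepressors and coactivators, 1 of 11 of macrophage markers and 0 of 23 of myeloid factors that act beside RUNX1. Over all windows the share was 16.8%, and with these few windows a list the differences between lists were not tested.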
